A study of Mus musculus with 6 samples.

Results

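Nodal is a secreted ligand of the TGF-beta superfamily that signals through Activin receptors and the transcription factors SMAD2 and SMAD3, and it acts only where a co-receptor of the EGF-CFC family such as TDGF1 (Cripto) is present. The signal switches on its own ligand gene and the genes of secreted inhibitors, so the pathway holds a positive and a negative feedback loop. In the early embryo it induces the primitive streak and the mesendoderm, the common source of mesoderm and endoderm, and it must be shut off for neural tissue to form. This account follows 10 genes of that circuit: the ligand gene Nodal, the co-receptor gene Tdgf1, the inhibitor genes Lefty1, Lefty2 and Fst, the mesendoderm transcription factor genes T (Brachyury), Eomes, Gsc and Mixl1, and the growth factor gene Fgf8. They were picked by gene name, with their FPKM values in these same libraries already known, and all 10 were found, of 14667 genes in at least 1 of 2 deposited tables. Their levels and differences are therefore a description: no p-value is given for them, and counts of them past a threshold support nothing.

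The RNA came from NE-4C, a mouse cell line of embryonic brain origin that lacks p53 and that the labels class as neural stem cells. All groups share a knockout of H3f3a, which encodes histone H3.3, and stable expression of an HA-tagged H3.3 in its place. Cbfa2t2_KO carried wild-type tagged H3.3 after Cbfa2t2, a gene for a transcriptional corepressor, had been knocked out as well, H3.3K27M carried tagged H3.3 with the K27M substitution, and H3.3WT, the reference for both, carried wild-type tagged H3.3 with Cbfa2t2 intact. Each group held 2 poly(A) RNA-seq libraries, 6 in all. The promoter of the transgenes and the number of clones behind a line are not given in the sources used here, nor whether a group's libraries are separate cultures. Each p-value thus rests on the spread between these libraries alone, which may be technical.

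Summed FPKM ran from 363654 to 419389 per library, and read depth is unknown because no counts are in the tables. The 2 H3.3WT libraries are the controls of both lines, so values of Cbfa2t2_KO and H3.3K27M relative to H3.3WT are not independent of each other. Cbfa2t2 itself stood at 1.02 and 0.769 FPKM in Cbfa2t2_KO, 2.02 and 0.855 in H3.3K27M and 1.38 and 1.35 in H3.3WT, and its difference between Cbfa2t2_KO and H3.3WT did not pass the test used below (log2 change -0.32 ± 0.16 SE, adjusted p = 0.15 by limma), so RNA level does not check this label. Of 12 neural progenitor markers, Sox1 and Fabp7 are not among the genes of either table and Pax6 was below 1 FPKM in all 6 libraries, while Sox3 stood at 47.4 to 54.2 FPKM in Cbfa2t2_KO, 48.4 to 53.7 in H3.3K27M and 88.9 to 92.9 in H3.3WT. Pou5f1, the pluripotency factor OCT4, stood at 1014 and 1169 FPKM in Cbfa2t2_KO, 1139 and 1351 in H3.3K27M and 1069 and 919 in H3.3WT, and Utf1, another pluripotency marker, at 162 to 449 FPKM over all libraries. Of the 12 neural progenitor markers, 8 averaged 1 FPKM or more in Cbfa2t2_KO, 7 in H3.3K27M and 8 in H3.3WT. Of 12 pluripotency markers 6, 6 and 7 did so, and Zfp42 is not among the genes of either table. A part of each list was thus expressed in every group, and these counts do not show how far the levels differed. The pluripotency list summed to 1512 to 1959 FPKM per library, most of it Pou5f1, and the neural progenitor list to 135 to 205. High Pou5f1 and Utf1, absent Sox1 and Fabp7 and low Pax6 and Hes5 go against a plain reading of the neural stem cell label. Other markers of that list were expressed, such as Nes at 14.3 to 38.8 FPKM.

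Promoter sequences of 5 of the 10 genes (Nodal, Tdgf1, T, Eomes and Gsc) are in the RefSeq table for GRCm38.p6, each 250 bases before to 50 after the start. Both pairs shown here differed within the pair in H3.3K27M against H3.3WT, in the values that follow. The ligand gene Nodal was lower and its co-receptor gene Tdgf1 higher. Of the transcription factor genes, Gsc was lower and Eomes overlapped. Capitals mark a match to CACACCT, a core of the T-box motif, searched on both strands.
Nodal, chr10:61417722-61418021, forward strand: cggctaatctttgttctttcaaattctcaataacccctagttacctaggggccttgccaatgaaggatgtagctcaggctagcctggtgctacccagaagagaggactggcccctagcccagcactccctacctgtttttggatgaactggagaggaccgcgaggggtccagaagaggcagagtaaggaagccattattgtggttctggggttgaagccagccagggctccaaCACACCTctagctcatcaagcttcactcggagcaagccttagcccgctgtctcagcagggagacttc
Tdgf1, chr9:110946109-110946408, reverse strand: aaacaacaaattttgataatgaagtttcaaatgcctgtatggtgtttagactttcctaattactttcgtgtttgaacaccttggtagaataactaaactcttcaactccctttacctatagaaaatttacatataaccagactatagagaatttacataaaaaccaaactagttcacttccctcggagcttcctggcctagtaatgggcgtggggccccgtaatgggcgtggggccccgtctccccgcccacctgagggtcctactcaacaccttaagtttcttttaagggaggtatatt
Eomes, chr9:118477939-118478238, forward strand: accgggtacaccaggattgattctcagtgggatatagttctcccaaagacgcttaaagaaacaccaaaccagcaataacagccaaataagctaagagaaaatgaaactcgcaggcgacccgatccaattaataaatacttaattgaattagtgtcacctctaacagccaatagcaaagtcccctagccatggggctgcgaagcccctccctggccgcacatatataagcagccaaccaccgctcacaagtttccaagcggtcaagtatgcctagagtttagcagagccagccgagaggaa
Gsc, chr12:104473187-104473486, reverse strand: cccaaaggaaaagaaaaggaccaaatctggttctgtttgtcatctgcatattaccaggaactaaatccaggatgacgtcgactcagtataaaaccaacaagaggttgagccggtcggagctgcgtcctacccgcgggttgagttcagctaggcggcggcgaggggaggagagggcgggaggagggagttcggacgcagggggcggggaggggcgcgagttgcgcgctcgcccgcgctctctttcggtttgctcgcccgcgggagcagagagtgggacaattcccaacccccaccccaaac
The match in the Nodal promoter covers positions -17 to -11 from the start, and CACACCT was found in 5.84% of 32851 promoters in the table. Neither ATCCACA, a FOXH1 motif core (3.38% of promoters), nor CAGACA (21.0%), a longer form of the SMAD-binding core, was found in the 5 promoters. The core CAGAC itself, on either strand, occurs in 49.6% of promoters and, among the 5, has 1 match in Tdgf1, which is not capitalised. The promoters also differed in base composition. Gsc had 60.3% G and C with 25 CG dinucleotides and T had 61.7% with 17, Nodal had 54.0% with 5, Eomes 47.3% with 10 and Tdgf1 41.7% with 7, beside a median of 52.7% and 7 over the whole table.

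The 10 genes fell into different patterns over the 3 groups. In Cbfa2t2_KO the libraries of 9 of the 10 lay below both H3.3WT libraries, from a ratio of means of 0.0515 for Lefty2 to 0.772 for Fst, and Tdgf1 overlapped. Of all genes that averaged 1 FPKM or more, 42.0% lay below without overlap and 28.5% above. In H3.3K27M, Tdgf1, Fst, T and Lefty1 lay above H3.3WT, Nodal, Gsc and Mixl1 below it, and Lefty2, Eomes and Fgf8 overlapped. Of all such genes, 25.1% lay above and 41.3% below. Between the lines directly, 9 of 10 were higher in H3.3K27M than in Cbfa2t2_KO, and Mixl1 overlapped. There 26.7% of all such genes lay above and 31.5% below. Mixl1 in every comparison, and Lefty2 in both with Cbfa2t2_KO, were under that minimum of 1 FPKM. Of the members that reached it, 7 of 8 lay below H3.3WT in Cbfa2t2_KO. In H3.3K27M 4 of 9 lay above H3.3WT and 2 below, and between the lines all 8 lay above.

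**Figure D1:**
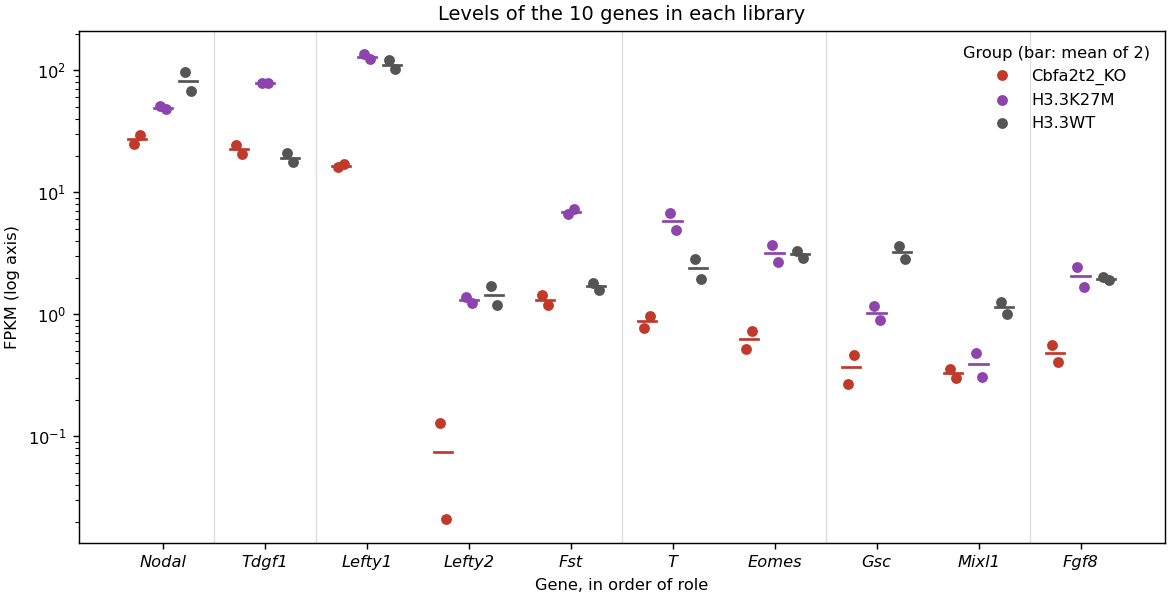
FPKM of each gene (log axis) in the 2 libraries of Cbfa2t2_KO (red), H3.3K27M (purple) and H3.3WT (grey); each point is 1 library and each bar the mean of 2. Lefty1 sits at 16.2 and 17.0 FPKM in Cbfa2t2_KO and above 100 in all other libraries, and Lefty2 in Cbfa2t2_KO holds the lowest points of the plot.

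Nodal (ENSMUSG00000037171; GRCm38 chromosome 10, 61417972 to 61425338, forward strand, 3 exons) encodes the ligand. It stood at 25.1 and 29.3 FPKM in Cbfa2t2_KO, 50.9 and 47.9 in H3.3K27M and 97.5 and 67.2 in H3.3WT. The 3 groups did not overlap: H3.3WT was highest, H3.3K27M in the middle and Cbfa2t2_KO lowest. On the scale of log2(FPKM + 1), used for all log2 values here, the difference from H3.3WT was -1.54 ± 0.19 (SE) in Cbfa2t2_KO and -0.70 ± 0.20 in H3.3K27M. The 2 H3.3WT libraries were far apart, 82.4 ± 21 FPKM (SD, n = 2), against 27.2 ± 2.9 in Cbfa2t2_KO and 49.4 ± 2.1 in H3.3K27M.

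Tdgf1 (ENSMUSG00000032494; chromosome 9, 110939603 to 110946158, reverse strand, up to 7 exons in a transcript) encodes the membrane-anchored co-receptor that Nodal needs. Its level was 24.3 and 20.8 FPKM in Cbfa2t2_KO, 78.7 and 78.4 in H3.3K27M and 21.0 and 17.6 in H3.3WT. Only the H3.3K27M libraries stood apart, at 4.07 times the H3.3WT mean (log2 difference 1.97 ± 0.17), while Cbfa2t2_KO and H3.3WT overlapped (0.21 ± 0.16). Of the 75-base words of the Tdgf1 transcript, 8.67% also occur in the pseudogene transcript Tdgf1-ps1, so a part of its reads may have been assigned to either.

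The ligand and the co-receptor therefore differed in opposite directions in H3.3K27M. Within a library, Tdgf1 FPKM over Nodal FPKM was 0.967 and 0.711 in Cbfa2t2_KO, 1.55 and 1.64 in H3.3K27M and 0.216 and 0.262 in H3.3WT. Such a ratio does not depend on how libraries are scaled to each other, and both lines lay above H3.3WT in it, with H3.3K27M highest.

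Lefty1 (ENSMUSG00000038793; chromosome 1, 180935022 to 180938400, forward strand, 4 exons) encodes a secreted inhibitor that blocks Nodal at its receptors and is itself a direct target of the pathway. It stood at 16.2 and 17.0 FPKM in Cbfa2t2_KO, 135 and 124 in H3.3K27M and 121 and 102 in H3.3WT. By group mean it was above 77.4% of the 14082 genes in both tables in Cbfa2t2_KO, 96.9% in H3.3K27M and 96.6% in H3.3WT, and in H3.3K27M and H3.3WT it was the most abundant of the 10 genes. The H3.3WT mean was 6.73 times that of Cbfa2t2_KO (log2 difference -2.67 ± 0.14), and H3.3K27M lay 1.16 times above H3.3WT, with the nearest libraries at a ratio of 1.02 (0.21 ± 0.17).

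Lefty2 (ENSMUSG00000066652; chromosome 1, 180893108 to 180899103, forward strand, 4 exons), the neighbouring paralog with the same activity, was much lower throughout. It had 0.129 and 0.0208 FPKM in Cbfa2t2_KO, 1.40 and 1.24 in H3.3K27M and 1.71 and 1.19 in H3.3WT. Cbfa2t2_KO lay below all other libraries, and H3.3K27M and H3.3WT overlapped. The transcripts of both Lefty genes are 84.2% identical over 1607 aligned bases, and 11.2% of the 75-base words of Lefty1 occur in Lefty2, so at this distance in level a few misassigned Lefty1 reads could weigh on Lefty2, and its values are uncertain.

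Fst (ENSMUSG00000021765; chromosome 13, 114452290 to 114458951, reverse strand, up to 6 exons) encodes follistatin, which binds Activin and keeps it from its receptors. Its values were 1.44 and 1.19 FPKM in Cbfa2t2_KO, 6.61 and 7.25 in H3.3K27M and 1.82 and 1.59 in H3.3WT. The antisense gene Gm47040 overlaps Fst and holds 1.52% of the 75-base words of its transcript. Fst was 4.07 times higher in H3.3K27M than in H3.3WT by ratio of means, while Cbfa2t2_KO was lower than H3.3WT by a log2 difference of -0.22 ± 0.17, close to its error. Of the 3 inhibitor genes, the Lefty pair was low in Cbfa2t2_KO and near its H3.3WT level in H3.3K27M, and Fst was high in H3.3K27M.

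The proportion of Nodal to its inhibitor Lefty1 also differed between the groups. Nodal over Lefty1 was 1.55 and 1.72 in Cbfa2t2_KO, 0.379 and 0.387 in H3.3K27M and 0.805 and 0.658 in H3.3WT. Cbfa2t2_KO, with the least Nodal RNA, thus had the most of it per Lefty1 RNA, and H3.3K27M the least.

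**Figure D2:**
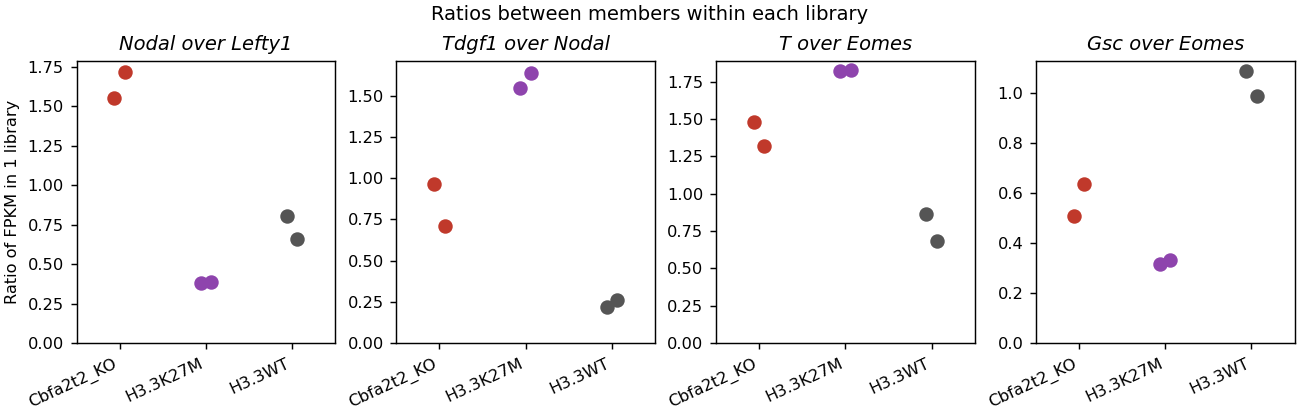
FPKM of one gene divided by that of another in the same library, with 2 points (libraries) per group and each axis starting at 0. Nodal over Lefty1 is highest in Cbfa2t2_KO (1.55 and 1.72) and lowest in H3.3K27M (0.379 and 0.387), and Tdgf1 over Nodal is highest in H3.3K27M. T, Eomes and Gsc were under 1 FPKM in Cbfa2t2_KO, so their ratios there are uncertain.

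T (ENSMUSG00000062327; chromosome 17, 8434423 to 8442496, forward strand, up to 8 exons) encodes Brachyury, the T-box factor of the primitive streak and notochord. Its values were 0.776 and 0.972 FPKM in Cbfa2t2_KO, 6.71 and 4.94 in H3.3K27M and 2.86 and 1.96 in H3.3WT. The groups did not overlap, and the lines lay on either side of H3.3WT, at log2 differences of -0.85 ± 0.19 in Cbfa2t2_KO and 1.00 ± 0.22 in H3.3K27M. Against Cbfa2t2_KO, H3.3K27M held 6.66 times more T RNA.

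Eomes (ENSMUSG00000032446; chromosome 9, 118478212 to 118486132, forward strand, up to 6 exons), the T-box factor that acts with SMADs to specify definitive endoderm, had 0.523 and 0.736 FPKM in Cbfa2t2_KO, 3.68 and 2.69 in H3.3K27M and 3.31 and 2.89 in H3.3WT. H3.3K27M and H3.3WT overlapped, and Cbfa2t2_KO was lower than both, at 0.203 times the H3.3WT mean. The antisense gene Gm33460 overlaps Eomes, and 1.29% of the 75-base words of the Eomes transcript occur in it. Since the strand of the libraries is not stated, reads from that shared part cannot be told apart. T over Eomes was 1.48 and 1.32 in Cbfa2t2_KO, 1.82 and 1.83 in H3.3K27M and 0.863 and 0.680 in H3.3WT, so both lines had more T per Eomes than H3.3WT. In Cbfa2t2_KO both genes were under 1 FPKM, so the ratio there is uncertain.

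Gsc (ENSMUSG00000021095; chromosome 12, 104471209 to 104473330, reverse strand, 3 exons) encodes Goosecoid, a homeobox repressor of the anterior streak and organiser. It stood at 0.267 and 0.468 FPKM in Cbfa2t2_KO, 1.17 and 0.900 in H3.3K27M and 3.62 and 2.85 in H3.3WT. Both lines lay below H3.3WT, Cbfa2t2_KO at 0.113 and H3.3K27M at 0.320 times its mean, and the 2 lines did not overlap with each other. Unlike Eomes, which overlapped between H3.3K27M and H3.3WT, Gsc was low in both lines. Gsc over Eomes was 0.510 and 0.636 in Cbfa2t2_KO, 0.318 and 0.334 in H3.3K27M and 1.09 and 0.988 in H3.3WT. The ratio in Cbfa2t2_KO is uncertain, since both genes were under 1 FPKM there.

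Mixl1 (ENSMUSG00000026497; chromosome 1, 180693043 to 180697034, reverse strand, 2 exons), a paired-type homeobox gene of the streak, had 0.358 and 0.300 FPKM in Cbfa2t2_KO, 0.479 and 0.309 in H3.3K27M and 1.27 and 1.01 in H3.3WT. Both lines were at about the same low level and overlapped, at 0.288 and 0.346 times the H3.3WT mean in Cbfa2t2_KO and H3.3K27M.

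Fgf8 (ENSMUSG00000025219; chromosome 19, 45736798 to 45742915, reverse strand, up to 6 exons) encodes a growth factor needed for cells to leave the streak, and is also made at the isthmic organiser between midbrain and hindbrain. Its values were 0.562 and 0.404 FPKM in Cbfa2t2_KO, 2.45 and 1.66 in H3.3K27M and 2.03 and 1.90 in H3.3WT. Cbfa2t2_KO was below all other libraries, at 0.246 times the H3.3WT mean, and H3.3K27M overlapped with H3.3WT.

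**Figure D3:**
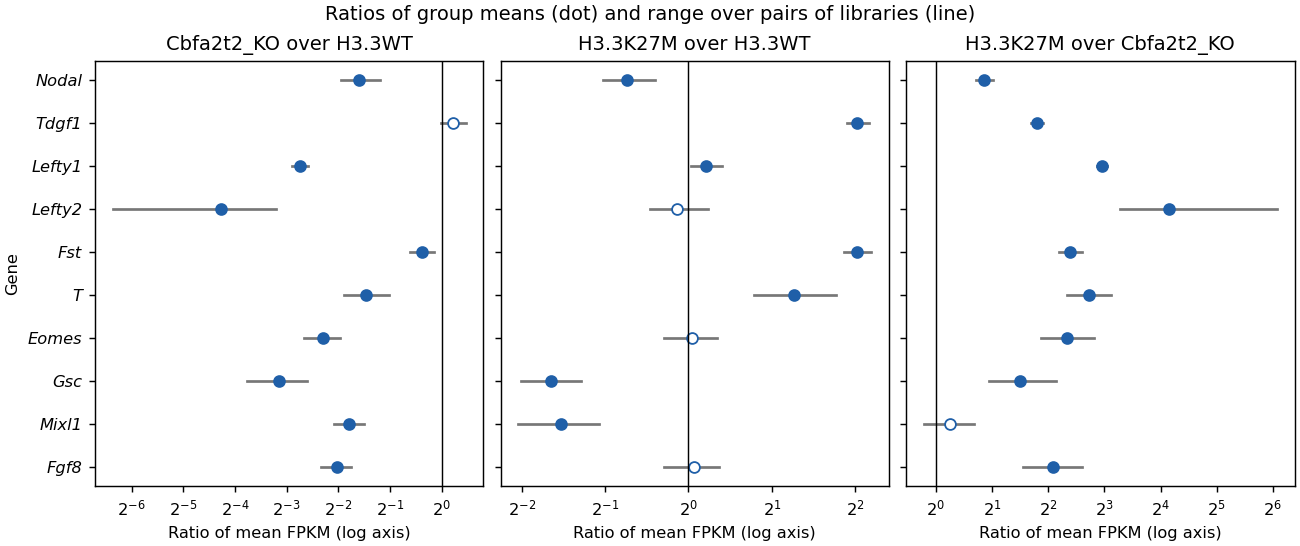
Ratio of mean FPKM between groups (dot, log axis) for each gene, with a line from the lowest to the highest ratio over the 4 pairs of libraries; open dots mark groups that overlap. In Cbfa2t2_KO over H3.3WT all dots but that of Tdgf1 (1.17) lie below 1, and in H3.3K27M over Cbfa2t2_KO all lie above 1, from 1.20 for Mixl1 to 17.7 for Lefty2. Mixl1 and Lefty2 were under the minimum of 1 FPKM in both of these comparisons, so their ratios are uncertain.

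These counts stand beside a broad background. For each comparison limma was run on all genes that averaged 1 FPKM or more, with p-values adjusted over all of them and a threshold of 0.05, and 8 of the 10 members reached that minimum in Cbfa2t2_KO with H3.3WT, all but Lefty2 and Mixl1. Of those 8, 6 were past the threshold, all lower, where 34.6% of 11626 genes were past it, 13.1% higher and 21.5% lower. The libraries of 7 of the 8 lay below both of H3.3WT, where 70.4% of all genes were without overlap, 28.5% higher and 42.0% lower. In H3.3K27M with H3.3WT, 9 members were tested, all but Mixl1, with 3 higher and 2 lower, where 26.2% of 11623 genes were past the threshold, 8.42% higher and 17.8% lower. Among these 9, 4 lay above and 2 below without overlap, beside 66.3% of all genes, 25.1% above and 41.3% below. Between H3.3K27M and Cbfa2t2_KO, 8 were tested and 7 were past the threshold, all higher, where 7.80% of 11601 genes were past it, 3.12% higher and 4.68% lower. All 8 lay above without overlap, beside 58.2% of all genes, 26.7% above and 31.5% below. T, Eomes, Gsc and Fgf8 averaged under 1 FPKM in Cbfa2t2_KO. They reached the minimum in comparisons with it only through groups where they were higher, so their direction there was partly set by the filter. Since the members were also chosen on these values, nothing is read from their counts. In these bulk samples fewer cells of a type and less RNA per cell cannot be told apart.

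The other genes of the Nodal and Activin pathway were taken from lists of 43 genes, of which 32 were tested. In Cbfa2t2_KO against H3.3WT 12 fell, 1 rose and 19 did not pass, with a median log2 change of -0.33 beside -0.11 over all genes. Of all genes tested there, 21.5% fell and 13.1% rose. In H3.3K27M against H3.3WT 9 fell and none rose, with a median of -0.35 beside -0.12, where 17.8% of all genes fell and 8.42% rose. Between H3.3K27M and Cbfa2t2_KO 1 was higher and 1 lower, with a median of 0.10 beside -0.02, where 3.12% of all genes were higher and 4.68% lower. The same shares apply to the counts of every list below. Without Cbfa2t2_KO replicate 2, 5 of the 32 passed in Cbfa2t2_KO against H3.3WT, and in H3.3K27M 4 passed without H3.3K27M replicate 2, 2 without H3.3WT replicate 1 3 without H3.3WT replicate 2 and 4 with median-of-ratios scaling. Between H3.3K27M and Cbfa2t2_KO none passed without either Cbfa2t2_KO library, 5 without H3.3K27M replicate 1 and 1 without H3.3K27M replicate 2.

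Among ligands and processing enzymes, Gdf3, a relative of Nodal that shares its receptors, was abundant, at 134 and 143 FPKM in Cbfa2t2_KO, 104 and 116 in H3.3K27M and 160 and 170 in H3.3WT. Gdf3 fell in H3.3K27M (log2 change -0.58 ± 0.17, adjusted p = 0.035 by limma), a call lost without H3.3WT replicate 1 or 2 or H3.3K27M replicate 1 and with median-of-ratios scaling, and in Cbfa2t2_KO its change of -0.25 did not pass (adjusted p = 0.17). Furin, a convertase that cleaves the Nodal precursor, was lower in H3.3K27M than in Cbfa2t2_KO (-0.89 ± 0.18, adjusted p = 0.028 by limma), a call lost without either Cbfa2t2_KO library or H3.3K27M replicate 2. The Activin subunit genes Inhba and Inhbb are not among the genes of either table. Gdf1 had 0.0628 and 15.8 FPKM in the 2 Cbfa2t2_KO libraries, 11.6 and 15.9 in H3.3K27M and 12.4 and 1.57 in H3.3WT; it is known to share a transcript with Cers1, and its level is uncertain.

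Of 5 receptor genes tested, 3 fell in Cbfa2t2_KO, where 21.5% of all genes fell. The type I receptor gene Acvr1b stood at 14.0 and 11.9 FPKM in Cbfa2t2_KO, against 22.2 and 21.9 in H3.3WT (log2 change -0.73 ± 0.15, adjusted p = 0.0091 by limma). The type II receptor genes Acvr2b (-0.85 ± 0.17, adjusted p = 0.0075 by limma) and Acvr2a (-0.80 ± 0.20, adjusted p = 0.019) fell as well, while Tgfbr1 and Tgfbr3 did not pass. All of these receptor calls were lost without Cbfa2t2_KO replicate 2 (highest adjusted p over the alternatives 0.065 for Acvr1b, 0.071 for Acvr2b and 0.10 for Acvr2a), that of Acvr2b also in the fit of all 6 libraries and that of Acvr2a also without either H3.3WT library. In H3.3K27M Acvr2a passed as lower (-0.58 ± 0.18, adjusted p = 0.044), and 8 of its 9 alternatives lost that call.

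Of the SMAD genes, Smad2, Smad3 and Smad4 did not pass in any of the 3 comparisons, with log2 changes of 0.41, -0.09 and 0.09 in Cbfa2t2_KO and 0.08, 0.15 and -0.32 in H3.3K27M against H3.3WT. Foxh1, the forkhead partner through which SMAD2 and SMAD3 reach Nodal target genes, stood at 63.2 and 72.2 FPKM in Cbfa2t2_KO, 99.2 and 104 in H3.3K27M and 171 and 146 in H3.3WT. It fell in Cbfa2t2_KO (-1.21 ± 0.15, adjusted p = 0.0013 by limma), under every alternative run, and in H3.3K27M (-0.63 ± 0.17, adjusted p = 0.028), where 5 of 10 alternatives kept the call; without overlap the groups stood in the same order as those of Nodal. The coactivator gene Ep300 fell in Cbfa2t2_KO (-1.06 ± 0.21, adjusted p = 0.0072), a call lost without Cbfa2t2_KO replicate 2. Med15, a Mediator subunit gene, rose there to 18.7 and 18.9 FPKM, against 6.56 and 7.61 in H3.3WT (1.29 ± 0.16, adjusted p = 0.0013).

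Of 16 pathway inhibitor genes tested, 7 fell in Cbfa2t2_KO and 6 in H3.3K27M, and none rose. Of all genes, 21.5% and 17.8% fell. Bambi, a receptor decoy without a kinase, stood at 6.62 and 6.80 FPKM in Cbfa2t2_KO, 7.86 and 9.05 in H3.3K27M and 17.9 and 20.2 in H3.3WT (log2 changes -1.38 ± 0.15 and -1.08 ± 0.18, adjusted p = 0.0011 and 0.0047 by limma), and both calls held under every alternative run. The SMAD corepressor genes Tgif2 (-1.35 ± 0.20, adjusted p = 0.0025), Ski (-0.91 ± 0.17, adjusted p = 0.0065) and Tgif1 (-0.88 ± 0.19, adjusted p = 0.010) fell in Cbfa2t2_KO, that of Tgif1 not without Cbfa2t2_KO replicate 2. Pmepa1, a feedback inhibitor that sequesters SMADs, was higher in H3.3K27M than in Cbfa2t2_KO, at 11.3 and 10.7 FPKM against 4.33 and 5.13 (1.07 ± 0.17, adjusted p = 0.014), a call lost without either Cbfa2t2_KO library. The inhibitory SMAD gene Smad7 was lower in Cbfa2t2_KO than in H3.3WT (-0.67, adjusted p = 0.021), with 2.65 and 2.21 against 4.55 and 4.37 FPKM.

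Of 31 further regulators of the primitive streak and mesendoderm, 15 are in the tables and 7 or 8 were tested per comparison. In Cbfa2t2_KO against H3.3WT 3 fell and none rose (median -0.35), beside 21.5% and 13.1% of all genes. In H3.3K27M against H3.3WT 2 of 8 fell and none rose (median -0.19), beside 17.8% and 8.42%. Between H3.3K27M and Cbfa2t2_KO none of 7 passed (median 0.37), beside 7.80% of all genes. Gata4, an endoderm and heart factor, stood at 1.77 and 1.67 FPKM in Cbfa2t2_KO, 2.27 and 1.93 in H3.3K27M and 4.70 and 5.30 in H3.3WT, and fell in both lines (-1.14 ± 0.17, adjusted p = 0.0025, and -0.95 ± 0.19, adjusted p = 0.0090, by limma). Otx2, an anterior epiblast and forebrain factor, fell in Cbfa2t2_KO (-0.77 ± 0.20, adjusted p = 0.021), a call lost without either Cbfa2t2_KO library or H3.3WT replicate 1. In H3.3K27M 1 gene of the list passed without H3.3K27M replicate 2 and 1 without H3.3WT replicate 1, and none without H3.3WT replicate 2. The mesoderm markers Tbx6 and Mesp1 were below 1.2 FPKM in every library, and the definitive endoderm markers Sox17 and Foxa2 are not among the genes of either table.

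**Figure D4:**
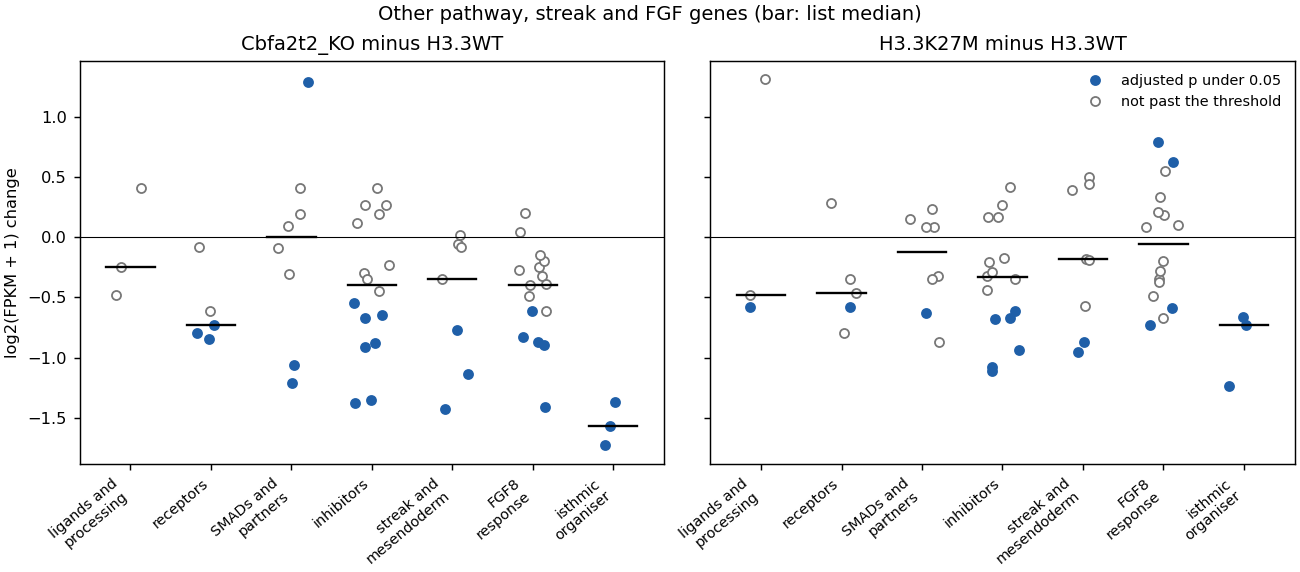
Log2(FPKM + 1) change of each tested gene of the pathway, streak, FGF and isthmus lists (not the cell type and immediate early lists) in Cbfa2t2_KO (left) and H3.3K27M (right) against H3.3WT; filled points passed at an adjusted p of 0.05, open points did not, and bars are list medians. All 3 tested isthmic organiser genes are filled and below 0 in both panels, and Med15 is the only filled point above 0 on the left.

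For Fgf8, the receptor and response genes and the isthmic organiser genes were set beside it. In Cbfa2t2_KO against H3.3WT 8 of 19 tested fell and none rose, with a median of -0.49, beside 21.5% and 13.1% of all genes. Dusp6, a phosphatase induced by FGF and ERK signalling, stood at 6.27 and 6.02 FPKM in Cbfa2t2_KO, 12.9 and 10.3 in H3.3K27M and 19.3 and 16.7 in H3.3WT (log2 change in Cbfa2t2_KO -1.41 ± 0.16, adjusted p = 0.0011 by limma). The receptor genes Fgfr1 (-0.83 ± 0.15, adjusted p = 0.0050) and Fgfr2 (-0.90 ± 0.17, adjusted p = 0.0057) fell in Cbfa2t2_KO. The isthmic homeobox genes En1 and En2 and the zinc finger gene Sp8 fell in Cbfa2t2_KO (-1.73 ± 0.20, -1.37 ± 0.16 and -1.57 ± 0.18, each with adjusted p = 0.0011 by limma). Sp8 had only 0.502 and 0.232 FPKM in Cbfa2t2_KO, against 2.77 and 3.3 in H3.3WT, and reached the minimum through H3.3WT. Lmx1b, Gbx2 and Cnpy1 were under 1 FPKM in all libraries and were not tested. Of these, Lmx1b overlapped between Cbfa2t2_KO and H3.3WT, and Gbx2 and Cnpy1 were lower in Cbfa2t2_KO. Pax2, Pax5 and Wnt1 are not among the genes of either table.

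In H3.3K27M, 5 of the 19 FGF and isthmus genes fell and 2 rose against H3.3WT, and 8 were higher than in Cbfa2t2_KO, none lower. Of all genes, 17.8% fell and 8.42% rose against H3.3WT, and 3.12% were higher and 4.68% lower than in Cbfa2t2_KO. Spry1, a feedback inhibitor of FGF signalling, had 5.52 and 5.23 FPKM in H3.3K27M, against 2.72 and 2.52 in Cbfa2t2_KO (0.82 ± 0.17, adjusted p = 0.030 by limma), and Fgfbp3, which encodes an FGF-binding protein, 3.63 and 5.42 against 1.51 and 1.31 (1.18 ± 0.21, adjusted p = 0.019). These counts rest on single libraries: the 8 became none without Cbfa2t2_KO replicate 1, Cbfa2t2_KO replicate 2 or H3.3K27M replicate 2 and 1 without H3.3K27M replicate 1, and the 7 against H3.3WT became 1 without H3.3K27M replicate 2 or either H3.3WT library. More of the immediate early genes, which ERK signalling and handling of cells both induce, fell than rose in both lines. Of 15 tested, 9 fell and 2 rose in Cbfa2t2_KO, and 8 fell and 2 rose in H3.3K27M, both against H3.3WT. Their median log2 changes were -0.82 and -0.75, and 21.5% and 17.8% of all genes fell. The summed FPKM of the 17 found was 193 and 229 in Cbfa2t2_KO, 223 and 245 in H3.3K27M and 602 and 824 in H3.3WT. Most of that sum in H3.3WT was Egr1, at 7.55 and 7.59 FPKM in Cbfa2t2_KO, 5.97 and 6.43 in H3.3K27M and 173 and 273 in H3.3WT, and Ier2, while Ier3 and Klf2 were the 2 that rose in each line. Their part in the FGF result was not tested.

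Pluripotency markers were examined because Nodal, Lefty1, Tdgf1 and Gdf3 are also expressed by pluripotent cells. Of 7 tested in Cbfa2t2_KO against H3.3WT, Utf1, Nanog and Esrrb fell and Lin28a rose, the call of Nanog not without Cbfa2t2_KO replicate 2 or H3.3WT replicate 1, and that of Lin28a lost without any 1 of the 4 libraries and in 2 further alternatives. Nanog stood at 3.06 and 2.85 FPKM in Cbfa2t2_KO, 8.61 and 9.86 in H3.3K27M and 6.89 and 5.27 in H3.3WT, an order shared with T and without overlap, and was higher in H3.3K27M than in Cbfa2t2_KO (1.37 ± 0.19, adjusted p = 0.010 by limma), a call lost without Cbfa2t2_KO replicate 2. Sox2, shared by pluripotent and neural progenitor cells, had 12.3 and 9.55 FPKM in Cbfa2t2_KO, 28.1 and 32.2 in H3.3K27M and 30.9 and 34.4 in H3.3WT and fell in Cbfa2t2_KO (-1.50 ± 0.17, adjusted p = 0.0010). The summed level of the pluripotency list was 1512 and 1699 FPKM in Cbfa2t2_KO, 1765 and 1959 in H3.3K27M and 1788 and 1528 in H3.3WT, of which Pou5f1 made up most. The part of these markers in the values of the 10 genes was not tested.

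The genes whose pattern was most like that of a member were those with the smallest Euclidean distance between log2 values centred on the H3.3WT mean, over 6 libraries and 11601 genes. For Nodal these were En1 (distance 0.31), Tmem63a (0.36) and Dusp6 (0.42). Nearest to T were Lypd1 (0.56), Pla2g10 (0.75) and Dnmt3l (0.76), the last a cofactor of DNA methyltransferases in germ cells and early embryos. For Lefty1 no gene came as near, with Tnnt1, a troponin gene, at 1.12, Gm22879 at 1.20 and the kinase gene Stk39 at 1.28. Tnnt1 stood at 2.92 and 3.62 FPKM in Cbfa2t2_KO, 18.1 and 25.7 in H3.3K27M and 28.8 and 31.5 in H3.3WT, so that, like Lefty1, it was lowest in Cbfa2t2_KO without overlap. Unlike Lefty1, which lay above H3.3WT in H3.3K27M, Tnnt1 lay below it there.

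Of the 10 genes, 3 share a stretch of chromosome 1. Mixl1, Lefty2 and Lefty1 lie within 245358 bases, and H3f3a (180800832 to 180813943), the gene whose knockout the labels give for all groups, lies between Mixl1 and Lefty2, 103797 bases from the first and 79164 from the second. H3f3a itself stood at 82.1 and 66.3 FPKM in Cbfa2t2_KO, 77.3 and 66.8 in H3.3K27M and 131 and 181 in H3.3WT, so its RNA level does not check that label. Whether these reads came from the edited gene or from the tagged transgene cannot be told apart in the tables. H3f3a was lower in Cbfa2t2_KO (-1.05 ± 0.19, adjusted p = 0.0050 by limma) and in H3.3K27M (-1.09 ± 0.20, adjusted p = 0.0071) than in H3.3WT. Of 9 other genes within 200000 bases of this stretch, a set chosen after the values were seen, 8 were tested. In Cbfa2t2_KO against H3.3WT 4 fell and 1 rose (median log2 change -0.56), beside 21.5% and 13.1% of all genes. In H3.3K27M 2 fell and none rose (median -0.14), beside 17.8% and 8.42%. Tmem63a, which starts next to Lefty1, stood at 5.03 and 5.04 FPKM in Cbfa2t2_KO, 10.0 and 7.75 in H3.3K27M and 18.5 and 15.1 in H3.3WT (-1.55 ± 0.17 in Cbfa2t2_KO, adjusted p = 0.00099 by limma). Sde2, between H3f3a and Lefty2, had 17.3 and 15.3 FPKM in Cbfa2t2_KO, 21.6 and 17.3 in H3.3K27M and 40.4 and 42.1 in H3.3WT (-1.29 ± 0.14 in Cbfa2t2_KO, adjusted p = 0.00099). Tmem63a and Sde2 also fell in H3.3K27M (-0.85 ± 0.20 and -1.05 ± 0.17, adjusted p = 0.016 and 0.0050 by limma). Both Lefty genes stood at or near their H3.3WT level there. An effect of place in this stretch on any of these genes was not tested. Ephx1, the last gene of the stretch, rose in Cbfa2t2_KO (0.80 ± 0.16, adjusted p = 0.0078). Of these 5 calls in Cbfa2t2_KO 3 were left without Cbfa2t2_KO replicate 2 or H3.3WT replicate 2, and of the 2 in H3.3K27M 1 without H3.3K27M replicate 2 or either H3.3WT library.

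**Figure D5:**
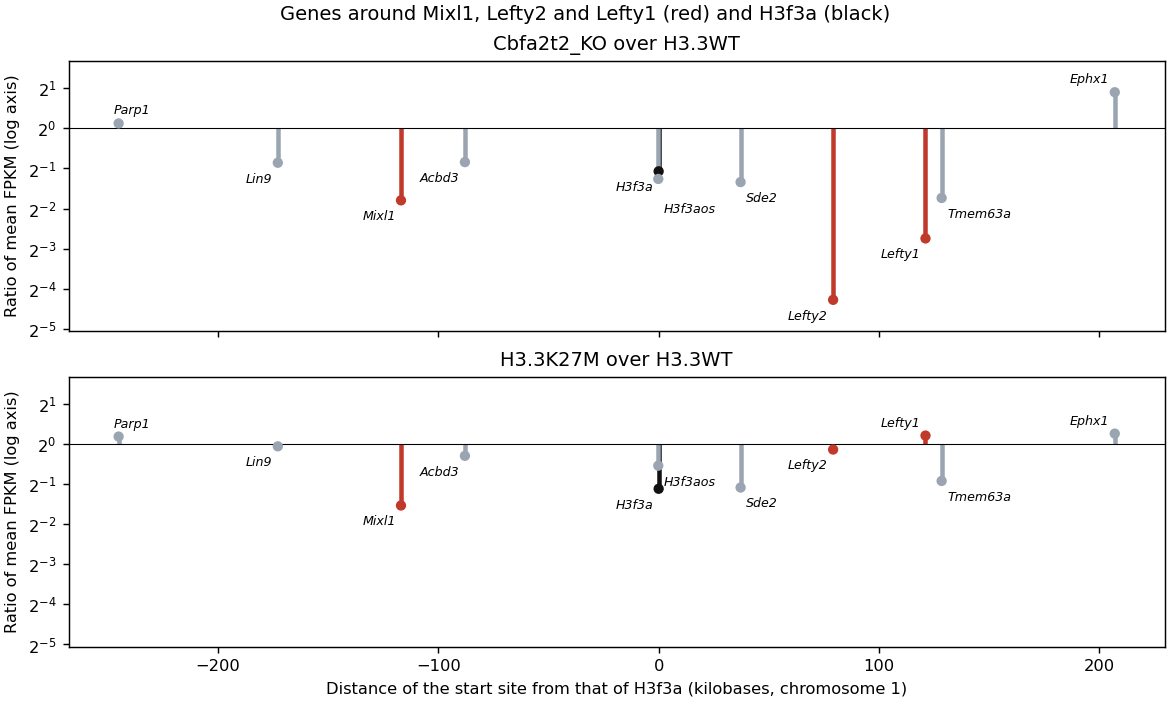
Ratio of mean FPKM (log axis) of Cbfa2t2_KO over H3.3WT (top) and H3.3K27M over H3.3WT (bottom) for most genes of the chromosome 1 stretch, placed by the distance of their start site from that of H3f3a. Lefty2 (0.0515) and Lefty1 (0.149) have the lowest ratios in the top panel, and Mixl1 (0.346) has the lowest in the bottom panel. Lefty2 in the top panel and Mixl1 in both were under the minimum of 1 FPKM and not tested. With 0.129 and 0.0208 FPKM in Cbfa2t2_KO, the ratio of Lefty2 is uncertain.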

How the data were processed

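Poly(A) RNA from 6 libraries was measured by the authors, and the values are FPKM as the authors deposited them, in 1 table per line with the H3.3WT libraries repeated with identical values for all 14082 shared genes. The submitters' processing notes name the build GRCm38 and, with no version or role, the tools HISAT2, StringTie, DESeq and Trim Galore; the annotation release and the strand of the libraries are not given in the sources used here. Every listed gene reached 0.5 FPKM in at least 1 library of its table, so a gene can be missing because it was low. Whole reads could not be recovered from the low values (at best a share of 0.269 to 0.286 with a tolerance of 0.1), so depth is unknown and no counting interval is given.

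H3.3K27M columns are marked by the letter M alone, which gave their group, with replicate numbers in column order. Tests ran on log2(FPKM + 1) of genes averaging 1 FPKM or more in the fitted libraries, which understates changes of low genes, with limma 3.58.1 in R 4.3.3 (eBayes with trend, Benjamini-Hochberg over all genes, threshold 0.05). Cbfa2t2_KO and H3.3K27M against H3.3WT used 4 libraries each, and H3.3K27M against Cbfa2t2_KO all 6. An exact permutation test of 2 against 2 cannot go below 0.333. The procedure was tested on simulated data. Members and lists were chosen with earlier results of these data known. Named list genes were up to 4 per list and comparison past the threshold with at least 2 FPKM in the higher group, by size of change; other names were added after their values were seen. Coordinates, transcript words and overlaps came from GENCODE vM21, which held 14646 of 14667 gene IDs, and promoters from RefSeq. Some genes of the lists are counted but not reported here by name.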

Additional observations from a re-analysis of the deposited data

How the results depend on the processing

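The alternatives were a pseudocount of 0.1, no filter, a minimum of 5 FPKM, median-of-ratios scaling, quantile normalization, another set of libraries in the fit and leaving out each library. Where a member could be refitted, its log2 difference kept its direction, except Lefty2, Eomes and Fgf8 in H3.3K27M against H3.3WT, which lay near 0. Mixl1, and Lefty2 in both comparisons with Cbfa2t2_KO, were under the minimum of 1 FPKM and were not followed over the alternatives. With no filter, Mixl1 had log2 differences of -0.69 in Cbfa2t2_KO and -0.62 in H3.3K27M against H3.3WT, and 0.07 in H3.3K27M against Cbfa2t2_KO. Lefty2 had -1.18 in Cbfa2t2_KO against H3.3WT and 1.11 in H3.3K27M against Cbfa2t2_KO. The minimum of 5 FPKM left Nodal, Tdgf1 and Lefty1. Fgf8 in Cbfa2t2_KO against H3.3WT fell under the minimum without either H3.3WT library. Gsc in Cbfa2t2_KO against H3.3WT had -2.86 with 0.1 and -1.63 with 1. Scaling moved the median of all genes by 0.11 and 0.12, and the share of calls that were higher went to 50.8% in Cbfa2t2_KO (37.9% as deposited) and 48.9% in H3.3K27M (32.1% as deposited) with median-of-ratios scaling.

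With 1 library left out the group's lone library is assumed to vary like the others. Leaving out 1 library at a time gave, for Cbfa2t2_KO against H3.3WT, 1915 to 3038 genes past the threshold (4028 with all, 1915 without Cbfa2t2_KO replicate 2), 5 to 12 pathway genes, 2 to 3 streak genes and 6 to 8 FGF and isthmus genes. For H3.3K27M against H3.3WT it gave 1007 to 2790 genes (3049 with all, 1007 without H3.3WT replicate 2), 2 to 7 pathway genes, 0 to 2 streak genes and 1 to 6 FGF and isthmus genes. For H3.3K27M against Cbfa2t2_KO it gave 29 to 786 genes (905 with all, 29 without Cbfa2t2_KO replicate 2), 0 to 5 pathway genes, 0 to 0 streak genes and 0 to 6 FGF and isthmus genes. A minimum of 5 FPKM, which tests fewer genes, left 1 streak gene and 5 FGF and isthmus genes in Cbfa2t2_KO against H3.3WT, 0 and 3 in H3.3K27M against H3.3WT, and 3 FGF and isthmus genes in H3.3K27M against Cbfa2t2_KO. Median-of-ratios scaling left 4 pathway genes in H3.3K27M against H3.3WT, a cause not tested. The fit of the 4 libraries of H3.3K27M and Cbfa2t2_KO called 554 genes and 5 FGF and isthmus genes, and no filter called 1 streak gene there. Of the named list genes, 24 of 36 calls in Cbfa2t2_KO, 9 of 27 in H3.3K27M against H3.3WT and 0 of 13 in H3.3K27M against Cbfa2t2_KO held under every alternative that could be run. No paired analysis was possible because the labels number no libraries across groups.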

Other observations

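Markers of other cell types were listed beside the Nodal circuit. Of 12 neural progenitor markers 10 are in the tables and 8 were tested, and Prom1 and Vim rose in both Cbfa2t2_KO and H3.3K27M against H3.3WT, while Nes, Sox3 and Sox9 fell in both. The call of Prom1 in H3.3K27M was lost without H3.3WT replicate 2, and that of Sox9 in Cbfa2t2_KO without Cbfa2t2_KO replicate 2. The summed level of that list was 142 and 135 FPKM in Cbfa2t2_KO, 154 and 165 in H3.3K27M and 200 and 205 in H3.3WT. Of 12 mesoderm and mesenchymal markers 8 are in the tables, with a summed level of 21.8 and 24.6 FPKM in Cbfa2t2_KO, 23.2 and 23.2 in H3.3K27M and 35.6 and 37.9 in H3.3WT. In Cbfa2t2_KO 4 of 6 tested fell (Pdgfrb, Tcf15, Twist1 and Twist2) and Col1a1, a collagen gene, rose, and in H3.3K27M 3 of 4 fell. The calls of Tcf15 and Twist1 in Cbfa2t2_KO were lost without Cbfa2t2_KO replicate 1, that of Twist1 also without H3.3WT replicate 2, and those of Pdgfrb and Tcf15 in H3.3K27M without H3.3K27M replicate 2 or either H3.3WT library. Of 8 definitive endoderm markers 3 are in the tables, and Epcam, an adhesion gene also expressed by pluripotent cells, rose in both lines, in H3.3K27M not without H3.3WT replicate 2. Its list summed to 172 and 160 FPKM in Cbfa2t2_KO, 133 and 142 in H3.3K27M and 83 and 62.4 in H3.3WT. All calls are by limma at an adjusted p of 0.05, both lines share the H3.3WT libraries, and the part of these markers in the values of the 10 genes was not tested.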
